A study of Homo sapiens with 20 samples.

Results

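The regions described here are those that a POU2F3 antibody enriched after AU-15330 in the cell lines NCI-H526 and NCI-H1048, both established from small cell lung cancers of the POU2F3 subtype (SCLC-P). The members were all regions of the 2 peak lists made with this antibody after AU-15330 that lie on chromosomes 1 to 22 and X, which gave 17829 regions in NCI-H526 and 51406 in NCI-H1048, or 69235 of the 562708 regions in the 20 peak lists of the series on these chromosomes. The study mapped transcription factors by chromatin immunoprecipitation and sequencing (ChIP-seq) in SCLC-P and multiple myeloma lines, with AU-15330 or with its vehicle, DMSO. AU-15330 is a PROTAC, a small molecule that directs its target to the proteasome, and its targets are SMARCA2 and SMARCA4, the ATPases of the mSWI/SNF chromatin remodelling complexes. Neither library is labelled with a tagged protein or a knockout, the antibody was CST_36135 in both, and AU-15330 was given at 1 µM. The NCI-H526 sample titles name POU2F3, whereas those of NCI-H1048 give line and treatment without a protein, so that the protein rests there on the antibody label, and whether the NCI-H1048 library is as labelled was not tested. The labels give 4 to 6 h of treatment for the series as a whole, a legend of the study gives 6 h for NCI-H1048, and its text gives 4 h without naming the line, so that line and treatment time cannot be told apart. Each condition was 1 library, so the lines were compared by description, without replicates and without tests. Intervals beside shares are exact (Clopper-Pearson) 95% binomial intervals, which cover counting error within one list only.

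POU2F3 is a POU domain transcription factor and the master regulator of tuft cells, chemosensory epithelial cells that use the taste signalling cascade. POU factors of its family bind the octamer, a DNA element whose core reads TTTGCAT, and POU2F3 relies on the coactivators POU2AF2 and POU2AF3 to activate genes. Remodelling complexes of the mSWI/SNF family move or evict nucleosomes and keep enhancers accessible to such factors.

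The sequences below show the octamer core, in capitals, on GRCh38, each read 5′ to 3′ with the core on the strand shown. They come from regions that were among the strongest with an octamer core in their class. For each class 3 are shown from 4 candidates with a single-copy summit word (the others lay nearest ARMC6, POMZP3 and RRH). In the NCI-H1048-only class the 100 strongest regions held no octamer core, so its examples rank below these. Regions found in both lines are represented by AGRN (chr1:1033154-1033183, plus strand), FLRT1 (chr11:64060891-64060920, plus strand) and CHD9 (chr16:53130867-53130896, minus strand). Those found in NCI-H526 alone are represented by CTNNA2 (chr2:79913742-79913771, plus strand), EPB41L3 (chr18:5610439-5610468, minus strand) and ADAMTS9 (chr3:64848218-64848247, minus strand), and those in NCI-H1048 alone by AXIN2 (chr17:65561050-65561079, minus strand), FA2H (chr16:74774863-74774892, plus strand) and NCKAP5 (chr2:133319849-133319878, minus strand). Each is named for the gene with the nearest start.
AGRN: gcatggggctcaTTTGCATgaccccgcccc
FLRT1: cccccgaggctcTTTGCATattcatgacct
CHD9: accggcgcgctaTTTGCATatttgtgcccg
CTNNA2: ataaaatcaataTTTGCATtttggatgatt
EPB41L3: gtatatctcttaTTTGCATctgttaatgaa
ADAMTS9: actcaaaaaataTTTGCATaataaccaaaa
AXIN2: ccgctcggatctTTTGCATaaaaggggcgg
FA2H: cgcacctgctcaTTTGCATaccgcgctccc
NCKAP5: agcaaatttaatTTTGCATgaaaagcatga

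Many promoter regions held no octamer core, and for contrast the ETS pattern CCGGAAGT is shown in capitals for 1 promoter region of both lines, at FAM219A (chr9:34458569-34458598, minus strand), and 1 of NCI-H1048 alone, at WDR24 (chr16:690408-690437, plus strand).
FAM219A: gtgtcccggacCCGGAAGTggagttgccga
WDR24: cccgtccctcgCCGGAAGTggtcctcttct

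The lists differed in size and in depth. In NCI-H526 cells 17829 regions were called with AU-15330 and 89850 with DMSO, whereas NCI-H1048 cells had 51406 with AU-15330 and 38034 with DMSO. The enrichment of a region (fold) is the authors' ratio of the read pileup at its summit over its local background. The background pileup of each library, recovered from these values, was 2.03 in NCI-H526 and 3.04 in NCI-H1048 with AU-15330, against 4.03 and 2.27 with DMSO. Levels below are summit pileups divided by the background pileup of their own library. Between libraries, levels also depend on how well each immunoprecipitation worked, which was not measured here. The median fold was 4.77 in NCI-H526 and 4.38 in NCI-H1048.

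A minority of the regions called with AU-15330 was found in both lines. Of the NCI-H526 regions 6842, or 38.4% (37.7 to 39.1), overlapped an NCI-H1048 region by at least 1 base, and 6821 of the NCI-H1048 regions, or 13.3% (12.98 to 13.6), overlapped an NCI-H526 region. The remaining 10987 regions of NCI-H526 (61.6%) and 44585 of NCI-H1048 (86.7%) were found in 1 line alone. When each list was limited to its 17829 strongest regions by fold, 25.7% of the NCI-H526 and 25.5% of the NCI-H1048 regions were shared, and when at least 50% of a region had to be covered, 35.3% and 8.70% were. The NCI-H1048 list was also thinned by scaling its recovered pileups and local backgrounds by the ratio of the background pileups, 0.667. Of the NCI-H1048-only regions 86.4% then still passed the p-value threshold of the NCI-H526 list, and of the shared ones 97.1%. This scaling adds no sampling error and covers only regions already called, so the part of library depth was not tested.

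The 3 classes lay in different parts of the genome. Promoters, taken as 1 kb to either side of a start of a protein-coding gene, held 3.48% (3.14 to 3.84) of NCI-H526-only regions and 23.1% (22.7 to 23.5) of NCI-H1048-only regions, and 38.4% (37.3 to 39.6) of the shared ones. With equal numbers of strongest regions the shares were 5.94%, 42.5% and 48.5%, and within 2 kb of a start they were 5.46%, 25.3% and 40.6%. Introns held 44.1% of NCI-H526-only and 31.9% of NCI-H1048-only regions, and 50.02% and 42.3% were intergenic. Among shared regions 27% were intronic and 32.3% intergenic. The median distance of the region's centre from a start was 54.8 kb in NCI-H526-only and 25.7 kb in NCI-H1048-only regions, and 10.98 kb in shared ones. The median GC content within 100 bases of the summit followed the same order, at 38.8%, 42.3% and 46.8%.

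**Figure D1:**
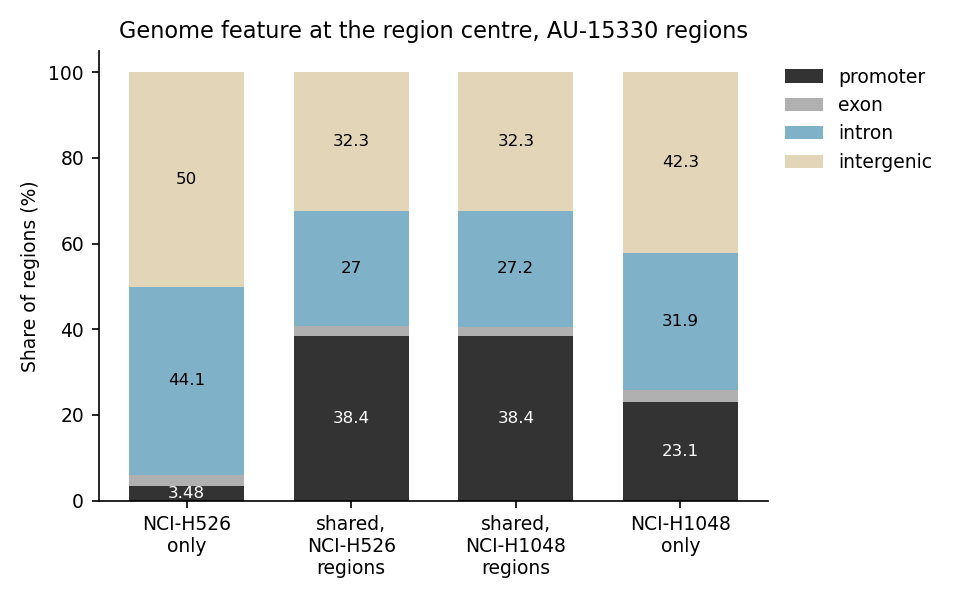
Share of regions (%, vertical axis) by genome feature at the region's centre, for NCI-H526-only regions, shared regions as called in each line, and NCI-H1048-only regions. Promoters make up 3.48% of NCI-H526-only, 38.4% of shared and 23.1% of NCI-H1048-only regions.

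NCI-H526-only regions carried the octamer core more often than NCI-H1048-only regions. It lay within 100 bases of the summit, on either strand, in 44.4% (43.4 to 45.3) of NCI-H526-only and 23.5% (23.1 to 23.9) of NCI-H1048-only regions, and in 42.0% (40.9 to 43.2) of shared regions. Windows of the same length 2 kb to either side held it in 5.66%, 5.00% and 4.61% of cases, so that the summits exceeded their flanks 7.84-fold in NCI-H526-only, 4.70-fold in NCI-H1048-only and 9.12-fold in shared regions. Over all promoters of protein-coding genes, windows of this length held the core in 2.00% of cases. The full octamer ATTTGCAT, which contains the core, was present in 31.7%, 17.8% and 33.2% of the same classes, and the core lay within 50 bases of the summit in 28.9%, 16.4% and 30.2%.

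Within each class the octamer was a feature of regions away from promoters. Of shared promoter regions 9.70% (8.60 to 10.9) held the core, against 62.2% (60.7 to 63.7) of the other shared regions. NCI-H526-only regions had it in 22.5% of their 382 promoter regions and 45.1% elsewhere, and NCI-H1048-only regions in 3.97% at promoters and 29.4% elsewhere. The core was thus scarcer in NCI-H1048-only than in NCI-H526-only regions outside promoters too.

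Strong enrichment meant different sites in the 2 lines. Among the strongest 20% of NCI-H526-only regions by fold 66.6% (64.6 to 68.6) held the octamer core and 1.77% were promoters, whereas among the strongest 20% of NCI-H1048-only regions 20.4% (19.6 to 21.3) held it and 50.1% were promoters. Of the 100 strongest regions, 76 held the core in the NCI-H526-only class and 0 in the NCI-H1048-only class, and 0% and 88% were promoters. Shared regions divided by line in the same way. Ranked by their NCI-H526 fold, 73.6% of the strongest 20% held the core, and ranked by their NCI-H1048 fold, 28.4% did.

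**Figure D2:**
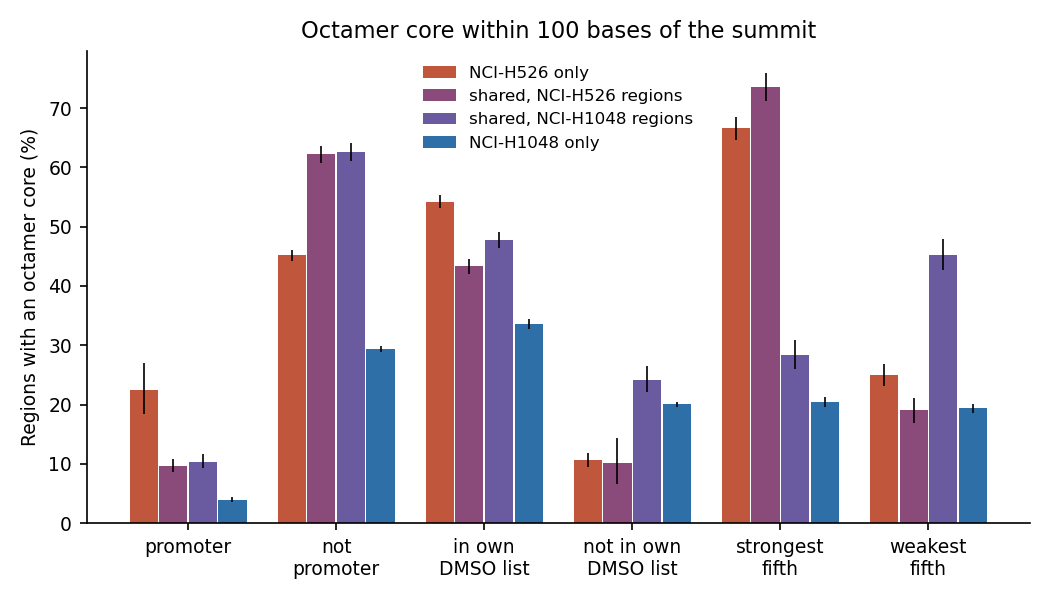
Share of regions with the octamer core within 100 bases of the summit (%, vertical axis), by location, by presence in the DMSO list of the same line, and by fold (strongest and weakest 20% of each class). Bars are the 4 classes of region and black lines are exact 95% binomial intervals. The core is found in 73.6% of the strongest shared regions ranked by NCI-H526 fold and 28.4% of those ranked by NCI-H1048 fold.

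Patterns of factors that bind promoters were found mainly in shared and NCI-H1048-only regions. CCGGAAGT, a pattern of ETS factors, was present in 0.146% of NCI-H526-only and 1.68% of NCI-H1048-only regions and in 3.68% of shared ones, and GGGCGGG, a pattern of Sp/KLF factors, in 1.47%, 12.9% and 17.4%. Over all promoter windows these patterns were present in 4.08% and 29.4% of cases. The ETS pattern was present in 8.94% of shared promoter regions and 6.31% of NCI-H1048-only promoter regions, and Sp/KLF in 39.1% and 44.8%. AACCACA, bound by RUNX factors, followed NCI-H526 instead, with 11.7% (11.1 to 12.3) of NCI-H526-only regions against 4.16% (3.97 to 4.35) of NCI-H1048-only regions and 5.54% of shared ones. Its flanks held it in 3.58%, 3.63% and 3.66%. The AP-1 pattern TGANTCA was no more frequent at summits than in flanks by a factor above 1.04 in these classes. All patterns were searched on both strands, and a match is a run of letters, not evidence of a bound factor.

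Most NCI-H526 regions had also been called in that line with DMSO, and most NCI-H1048 regions had not. Of NCI-H526-only regions 77.4% (76.7 to 78.2) overlapped a region of the NCI-H526 DMSO list, whereas 25.7% (25.3 to 26.1) of NCI-H1048-only regions overlapped one of the NCI-H1048 DMSO list. Shared regions had a counterpart in the DMSO list of their own line in 96.2% of cases in NCI-H526 and 78.1% in NCI-H1048. In neither DMSO list were 2448 NCI-H526-only regions (22.3%) and 25058 NCI-H1048-only regions (56.2%). The DMSO list of NCI-H526 was the longer one, with 89850 regions against 38034, and it held 35.5% of the NCI-H1048-only regions, more than the 25.7% held by their own list. Counting only regions also called with DMSO in the same line, 43.6% of NCI-H526 and 31.7% of NCI-H1048 regions were shared after AU-15330.

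Presence with DMSO went with the octamer in NCI-H526 above all. NCI-H526-only regions also called with DMSO held the core in 54.2% of cases and those called only with AU-15330 in 10.6%. In NCI-H1048-only regions these shares were 33.6% and 20.02%. NCI-H526-only regions called with DMSO in both lines, which were no longer called in NCI-H1048 with AU-15330, numbered 2473, and 68.3% of them held the core while 1.901% were promoters. Their counterpart, 7769 NCI-H1048-only regions called with DMSO in both lines, held it in 31.8% of cases and were promoters in 48.8%.

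Regions called with DMSO in both lines were still called with AU-15330 to different extents. Of the NCI-H526 DMSO regions that overlapped an NCI-H1048 DMSO region, 36.2% (35.5 to 36.8) were still called with AU-15330 in NCI-H526, and of the matching NCI-H1048 regions 60.4% (59.7 to 61.0) were still called in NCI-H1048. At promoters the shares were 33.1% in NCI-H526 and 95.02% in NCI-H1048, and elsewhere they were 37.4% and 47.0%. In NCI-H526 the regions no longer called held the octamer core in 48.8% of cases and those still called in 59.1%, while in NCI-H1048 the shares were 67.8% and 40.7%. From DMSO to AU-15330 the background pileup fell from 4.03 to 2.03 in NCI-H526 and rose from 2.27 to 3.04 in NCI-H1048. The part of library depth in these shares was not tested.

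Where a region was called both with AU-15330 and with DMSO, its level moved differently by line and site. At shared promoter regions the median ratio of the level with AU-15330 over DMSO was 0.797 in NCI-H526 (2523 regions) and 2.32 in NCI-H1048 (1986 regions), and the level was lower with AU-15330 at 74.6% of these regions in NCI-H526 and 4.98% in NCI-H1048. Regions with an octamer core were lower in both lines, with median ratios of 0.560 in NCI-H526 and 0.727 in NCI-H1048 among shared regions, 0.575 in NCI-H526-only and 0.768 in NCI-H1048-only regions. NCI-H1048-only promoter regions had a median ratio of 2.00. Regions lost with AU-15330 have no level in these lists and are not in the medians. Each ratio compares different libraries, so that it also depends on their immunoprecipitation.

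**Figure D3:**
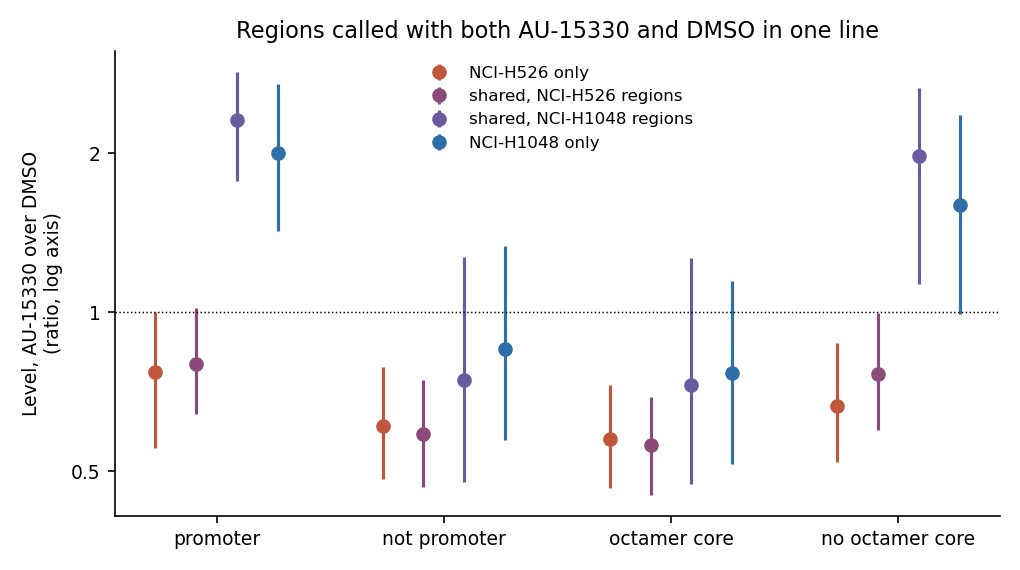
Ratio of the level with AU-15330 over the level with DMSO (vertical axis, log scale) for regions called with both in the same line. Points are medians and lines span the quartiles over regions, for 4 classes of region. At shared promoters the median is 0.797 in NCI-H526 and 2.32 in NCI-H1048, and at shared octamer regions it is 0.560 and 0.727.

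At the 6842 shared regions the folds of the 2 lines went together only weakly. Their rank correlation across regions was 0.149, with 0.365 at promoters and 0.263 elsewhere, a description of regions within 1 library per line. The median ratio of the NCI-H526 level over the NCI-H1048 level was 0.766 over all shared regions. It was 0.432 at promoters, where 90.0% of regions were lower in NCI-H526, and 1.08 elsewhere, and 1.11 with an octamer core against 0.581 without one. The summits lay within 100 bases of each other in 70.1% of pairs, and in 82.7% of those with an octamer core.

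Other lists of the series, which the rule did not use, held the 3 classes to different extents. HA-tagged POU2F3, expressed from a lentiviral construct in cells whose own gene was knocked out and pulled down with an HA antibody, was called after AU-15330 in NCI-H526 at 10.9% of NCI-H526-only regions and 44.5% of shared ones. In NCI-H1048 it was called at 3.33% of NCI-H1048-only regions and 15.9% of shared regions as called in NCI-H1048 (14.7% as called in NCI-H526). With DMSO HA-POU2F3 was called in NCI-H526 at 53.7% of NCI-H526-only regions, and in NCI-H1048 at 12.9% of NCI-H1048-only regions. The HA-POU2F3 lists differed in length, with 14408 regions in NCI-H526 and 5969 in NCI-H1048 after AU-15330, and 56863 and 20151 with DMSO. Across the lines, the NCI-H526 DMSO list held 25.4% of NCI-H1048-only regions, and the NCI-H1048 DMSO list held 15.1% of NCI-H526-only regions. HA-POU2AF2, the tagged coactivator, was mapped in NCI-H526 alone, and its DMSO list held 48.3% of NCI-H526-only, 15.1% of NCI-H1048-only and 70.6% of shared regions.

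The myeloma lists, which map the coactivator POU2AF1 and the plasma cell factor IRF4 in MM1.S and NCI-H929 cells, held promoter regions of both lines. At least 1 of these 8 lists held 7.77% of NCI-H526-only and 34.5% of NCI-H1048-only regions, and 50.6% of shared ones. Restricted to promoters the shares were 33.8%, 85.5% and 94.3%, and outside promoters they were 6.84%, 19.2% and 23.3%. The share of all promoters that these lists held is not given here, so the promoter shares cannot be set against promoters in general. At least 4 of the lists held 64% of NCI-H1048-only promoter regions and 82.8% of shared ones. These are other proteins in other cells, and their part in the NCI-H1048 list was not tested.

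**Figure D4:**
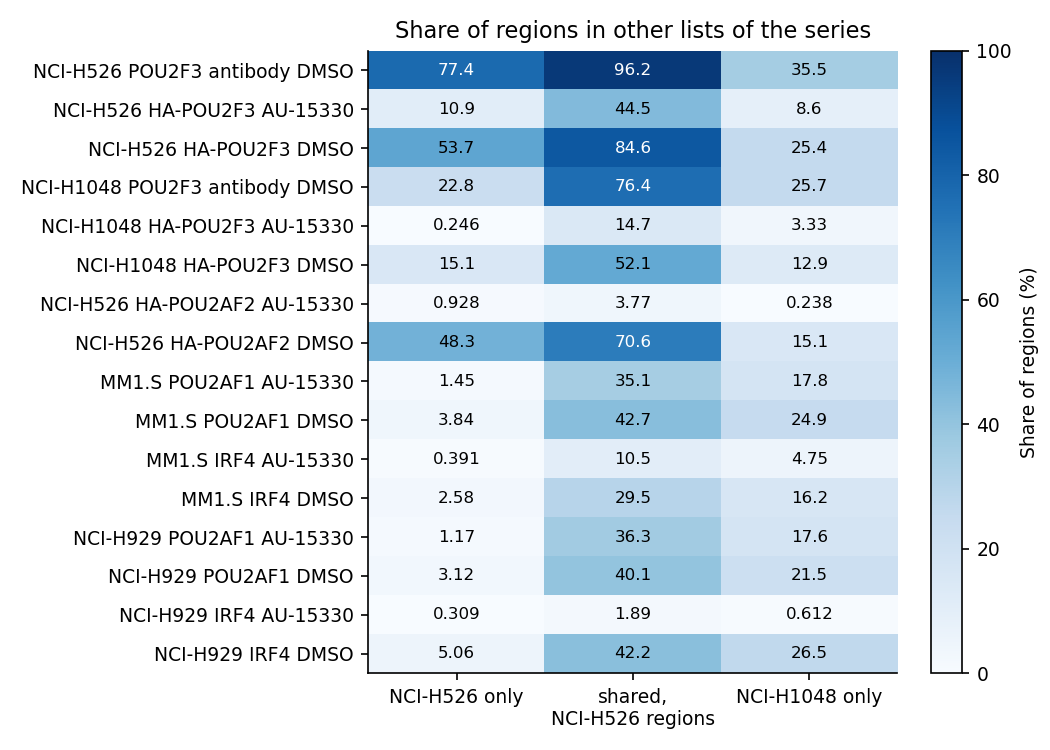
Share of regions (%, colour and number) of 3 classes (columns) that overlap a region of other lists of the series (rows, by line, protein and treatment) by at least 1 base. The NCI-H526 HA-POU2AF2 DMSO list holds 48.3% of NCI-H526-only and 15.1% of NCI-H1048-only regions, while the MM1.S POU2AF1 DMSO list holds 3.84% and 24.9%.

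Named by the nearest start of a protein-coding gene, NCI-H526 regions belonged to 7418 genes and NCI-H1048 regions to 15159, of which 6903 were the same genes, or 93.1% of the NCI-H526 and 45.5% of the NCI-H1048 genes. The strongest shared region lay nearest TUBA3C, 970 kb from its start, in a stretch of chromosome 13. Its 31-base word at the summit occurs 23 times in the genome, and whether the longer reads there can be placed with certainty was not tested. It had a fold of 32.3 in NCI-H526 and 27.6 in NCI-H1048. Next came KDM2B, a histone demethylase gene (18.1 and 24.9, in an exon), FAM219A (14.5 and 25.01), ZMIZ2 (20.4 and 23.7), TNKS1BP1 (19.2 and 23.6), RRAS2, which encodes a RAS family GTPase (14.9 and 23.5), MUC20 (12.2 and 33.8) and BLCAP (17.3 and 23.1). Of these 8 regions 5 were promoters, none held an octamer core, and all were called with DMSO in both lines. The regions of KDM2B and MUC20 lay 42.3 and 62.9 kb from the start.

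The strongest NCI-H526-only regions were distal. They lay nearest NBPF20 (fold 17.7), TMEM170B (15.8), PPIAL4G (15.2), CTNNA2, which encodes the neuronal alpha-catenin (14.9), CLVS2 (14.4), POMZP3 (14.1), TPTE (13.8) and EPB41L3 (13.7). None was a promoter, and those of CTNNA2, POMZP3 and EPB41L3 held an octamer core. Distances from the named start ran from 14.9 kb (TMEM170B) to 279 kb (CTNNA2), with 251 kb for TPTE and 159 kb for CLVS2. The NCI-H526 DMSO list held all 8 regions, and the NCI-H1048 DMSO list those of CTNNA2, CLVS2, POMZP3 and EPB41L3.

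In the NCI-H1048-only class the strongest region was at the promoter of POLR2J2, a gene of an RNA polymerase II subunit family (fold 41.5), followed by those nearest BDH1 (29.8), POM121, a nuclear pore gene (28.9), SMN2 (28.7), PDPK1, the kinase PDK1 (28.1), KCTD5 (26.9), WDR24 (26.6) and SPDYE1 (25.7). None held an octamer core, and all 8 had been called with DMSO in NCI-H1048. The NCI-H526 DMSO list held those of BDH1, POM121, PDPK1, KCTD5, WDR24 and SPDYE1, but not those of POLR2J2 and SMN2. Those of SMN2, BDH1, PDPK1 and SPDYE1 were intergenic, 351, 54.6, 52.7 and 18.4 kb from the named start. Summit words of POLR2J2 and BDH1 occur 2 times in the genome, that of POM121 3 times and that of SPDYE1 4 times. Whether the longer reads there can be placed with certainty was not tested. Among regions with a single-copy word the list continued with CRTC1 (25.6), TRIM16 (25.2), EPS15L1 (24.97) and MRS2 (24.96), each at a promoter.

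Tuft cell genes had regions in both lines at 22 of 38 genes (57.9%), where 32.7% of all protein-coding genes did. This share was 62.5% for housekeeping and 77.8% for histone H2B genes. In the remaining gene lists it ran from 7.69% (T cell) to 34.9% (ribosomal protein). Of the 38 genes, 26 had an NCI-H526 region in the gene or 10 kb upstream of it and 34 had an NCI-H1048 region, where 34.6% and 77.8% of all 19962 protein-coding genes had one. Regions found in both lines lay at 20 of the 38 genes (23.9% of all genes), NCI-H526-only regions at 18 (18.1%) and NCI-H1048-only regions at 29 (70.4%). The 26 and 34 genes are 68.4% and 89.5% of the list. Within 2 kb of a start, 17 and 26 of them had a region (18.5% and 63.0% of all genes), so that the NCI-H1048 count was close to that of all genes. Within 50 kb of the gene 30 (78.9%) and 36 (94.7%) had one, where 59.9% and 94.3% of all genes did. With DMSO 37 of these genes had a region in NCI-H526, 11 of which had none with AU-15330. In NCI-H1048 30 had one with DMSO, while 5 had one with AU-15330 alone. The shares of all genes with a DMSO region are not given here. The genes' NCI-H526 regions numbered 63, of which 58.7% were shared and 66.7% held the octamer core, and of their NCI-H1048 regions 37 (36.6%) were shared and 47 (46.5%) held it. Levels were lower with AU-15330 than with DMSO at 61 of the 62 NCI-H526 regions called with both (median ratio 0.668). In NCI-H1048 they were lower at 19 of 52 regions (median 1.16). Over all genes the median ratio in NCI-H526 was 0.659 for shared and 0.613 for NCI-H526-only regions, with 84.6% and 88.4% lower. In NCI-H1048 it was 1.24 for shared and for NCI-H1048-only regions, with 42.2% and 39.4% lower, so the medians of the tuft cell genes were near those of each list.

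Among the transcription factors, POU2F3 itself had 6 NCI-H526 and 9 NCI-H1048 regions, and 5 were shared. At the intronic region chr11:120254831-120255756, which had the highest fold of the gene in NCI-H526, 7.78, the level was 54.8 with AU-15330 and 78.3 with DMSO in NCI-H526, and 40.2 and 38.4 in NCI-H1048. At the region chr11:120239868-120240191, at a promoter inside the gene, it was 55.8 and 70.4 in NCI-H526 and 43.8 and 48.6 in NCI-H1048. Every NCI-H526 region at POU2F3 held an octamer core. GFI1B, which encodes a zinc finger repressor, had 6 NCI-H526 and 5 NCI-H1048 regions, of which 2 in each line lay nearest TSC1. At its promoter region chr9:132977473-132977877 the level was 9.88 with AU-15330 and 18.3 with DMSO in NCI-H526, and 39.5 and 15.9 in NCI-H1048, so that the lines moved in opposite directions there. ASCL2 had 1 shared intronic region, with levels of 8.40 and 18.1 in NCI-H526 and 10.5 and 13.2 in NCI-H1048. SPIB, an ETS family gene, had regions in NCI-H526 alone, 2 in number, and none in NCI-H1048 with either treatment. HMX2, HMX3 and SOX9 had AU-15330 regions in NCI-H1048 alone, and in NCI-H526 each had a DMSO region in the gene or 10 kb upstream of it. The strongest, at the HMX2 promoter, had a level of 16.9 with DMSO in NCI-H526, and 30.6 with AU-15330 and 26.5 with DMSO in NCI-H1048.

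The coactivator genes were bound in both lines. POU2AF2 had 4 NCI-H526 and 5 NCI-H1048 regions, 3 of them shared. Its promoter region (chr11:111245336-111245828) had a level of 40.0 with AU-15330 and 57.3 with DMSO in NCI-H526, and 18.8 and 22.96 in NCI-H1048. At the intronic region chr11:111273639-111274102 it was 33.1 and 59.2 in NCI-H526, against 73.1 and 33.6 in NCI-H1048, and an octamer core lay within 100 bases of the NCI-H1048 summit but not of the NCI-H526 summit. POU2AF3 had 1 shared region, with levels of 30.6 and 48.6 in NCI-H526 and 58.6 and 34.0 in NCI-H1048, and 3 further regions in NCI-H1048. In the 1 Mb that holds POU2AF2, POU2AF3 and POU2AF1, 30 regions were called in NCI-H526 and 36 in NCI-H1048.

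The taste and calcium signalling genes included some of the most enriched tuft cell regions. IRAG2, an inositol trisphosphate receptor-associated protein, had 7 NCI-H526 and 10 NCI-H1048 regions with 6 shared, and its leading intronic region (chr12:25058649-25059094) had a level of 43.95 with AU-15330 and 49.8 with DMSO in NCI-H526, and 67.5 and 40.2 in NCI-H1048. The promoter region of SUCNR1, the succinate receptor, had levels of 48.9 and 73.4 in NCI-H526 and 52.4 and 48.1 in NCI-H1048. GNAT3, the taste G protein gustducin, had 2 shared regions. The one nearest its start had levels of 31.1 and 42.1 in NCI-H526 and 40.2 and 12.4 in NCI-H1048, whose summit had no octamer core within 100 bases. Of the 12 genes of this role 7 had an NCI-H526 region and 12 an NCI-H1048 region (34.6% and 77.8% of all genes). GNG13, GNB3, PLCB2, ITPR3 and TAS1R3 had an AU-15330 region in NCI-H1048 alone, and in NCI-H526 each had a DMSO region in its window. That need not be the same site, and the GNG13 region did not overlap an NCI-H526 DMSO region. The NCI-H1048 region in the TAS1R3 window is at the promoter of INTS11, with a level of 55.3 with AU-15330 and 26.5 with DMSO and no octamer core. TRPM5, the cation channel of the cascade, had 3 regions in its window in each line, and the 1 shared region is at the promoter of KCNQ1.

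Among genes of eicosanoid synthesis, ALOX5 (5-lipoxygenase) had a shared octamer region upstream of the gene with levels of 17.3 with AU-15330 and 24.8 with DMSO in NCI-H526 and 19.4 and 23.4 in NCI-H1048. PTGS1 (cyclooxygenase 1) had a shared intronic region with levels of 9.38 and 10.2 in NCI-H526 and 5.60 and 16.3 in NCI-H1048. With AU-15330 ALOX5AP had a region in NCI-H526 alone, and LTC4S and HPGDS in NCI-H1048 alone. Of the 12 markers and effectors, 10 had a region in each line (34.6% of all genes in NCI-H526 and 77.8% in NCI-H1048). AVIL, which encodes the actin-binding protein advillin, had a promoter region in NCI-H526, with levels of 14.8 with AU-15330 and 25.04 with DMSO, and in NCI-H1048 the region was called with DMSO alone, at a level of 10.6. DCLK1, a kinase used as a tuft cell marker, had 3 regions in NCI-H526 and none in NCI-H1048 with either treatment. MATK and VAV1 had AU-15330 regions in NCI-H1048 alone, and DMSO regions in both lines.

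**Figure D5:**
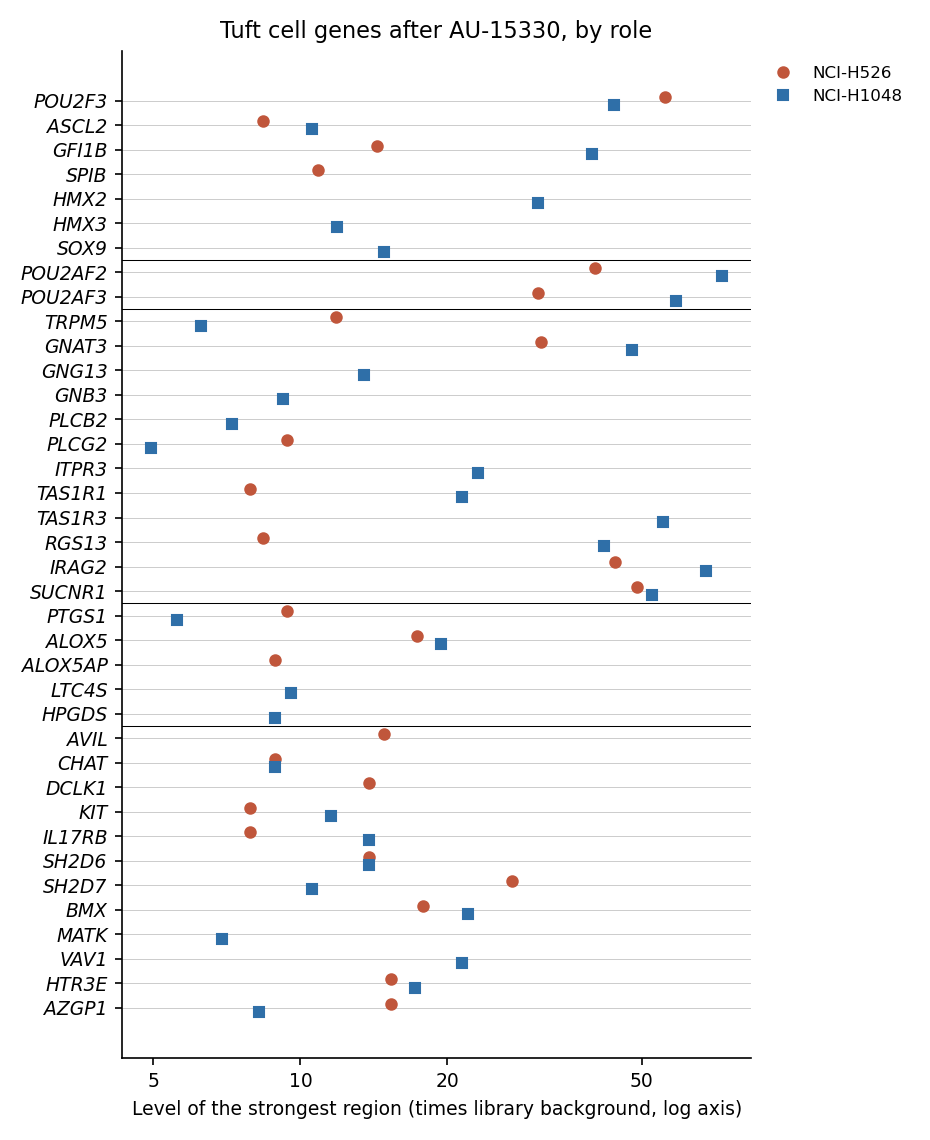
Level of the strongest AU-15330 region (horizontal axis, times the background pileup of the library, log scale) in the window of each of 38 tuft cell genes, grouped by role from transcription factors to markers and effectors, in NCI-H526 (circles) and NCI-H1048 (squares). A missing point means that no region was called. NCI-H526 lacks a point at 12 genes and NCI-H1048 at 4 (SPIB, ALOX5AP, AVIL and DCLK1).

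The octamer cores of 5 shared tuft cell regions are printed because these regions were called with both treatments in both lines. They are at IRAG2 (chr12:25058877-25058906, minus strand), SUCNR1 (chr3:151873572-151873601, minus strand), POU2F3 (chr11:120255422-120255451, plus strand), GNAT3 (chr7:80513397-80513426, minus strand) and HTR3E, a serotonin receptor subunit gene (chr3:184099954-184099983, plus strand). The core is in capitals and its middle lay 2 to 65 bases from the NCI-H526 summit.
IRAG2: tttgcattcaccTTTGCATtctgctttaca
SUCNR1: ttgcatatcctaTTTGCATatcctgcagcc
POU2F3: ctcggcgcccaaTTTGCATagggcgatgat
GNAT3: tgggacaggcccTTTGCATtgtaaaagcaa
HTR3E: atttgggcatgcTTTGCATggagacagaaa
The HTR3E promoter region had a level of 15.3 with AU-15330 and 29.3 with DMSO in NCI-H526, and 17.1 and 29.1 in NCI-H1048.

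Replication-dependent histone H2B genes, whose promoters are known for an octamer bound by POU2F1, were bound in both lines. Of 18 such genes, 14 had an NCI-H526 region and 18 an NCI-H1048 region (34.6% and 77.8% of all genes), and shared regions lay at 14 (23.9%). Neighbouring H2B genes share some of these regions. Others lay nearest genes of other kinds, in NCI-H526 HFE, H4C3, H3C6, H2AC15, FCGR1A and H2AC21. The region counts and levels that follow are therefore not of H2B promoters alone. Of the 20 NCI-H526 regions 13 held the octamer core and 17 were promoters, and of the 39 NCI-H1048 regions 14 and 32. With AU-15330 the level was lower at 20 of 20 NCI-H526 regions called with both treatments (median ratio over DMSO 0.644) and at 1 of 18 NCI-H1048 regions (median 2.22). Over all shared promoter regions the median ratios were 0.797 in NCI-H526 and 2.32 in NCI-H1048, with 74.6% and 4.98% of regions lower. POU2F1 was not mapped in the lists used here, and whether the antibody meets other POU factors was not tested. The cores at H2BC18 (chr1:149812401-149812430), H2BC11 (chr6:27132824-27132853) and H2BC17 (chr6:27893265-27893294), all on the minus strand, show this promoter octamer in capitals.
H2BC18: tgcgagtcttcaTTTGCATacgggctctat
H2BC11: ctcttcaccttaTTTGCATaagcgattcta
H2BC17: tcagaaagctcaTTTGCATtaagaggaagc

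Genes of other kinds had NCI-H1048 regions more often as well, as did all genes (34.6% in NCI-H526 and 77.8% in NCI-H1048). Of the 27 mSWI/SNF subunit genes 8 (29.6%) had an NCI-H526 region and 26 (96.3%) an NCI-H1048 region. SMARCA4, the target of the compound, had none in NCI-H526 and 3 in NCI-H1048, the strongest with a fold of 20.5, and SMARCA2 had 0 and 5. Housekeeping genes had one at 10 (62.5%) and 16 of 16 genes, and genes of cytosolic ribosomal proteins at 29 (34.9%) and 83 of 83. Neuroendocrine genes, the markers of other small cell lung cancer subtypes, had one at 8 and 13 of 21 genes (38.1% and 61.9%). Hepatocyte genes, chosen as genes of an unrelated tissue, had one at 3 and 5 of 12 genes (25% and 41.7%), and T cell genes at 2 and 7 of 13 (15.4% and 53.8%). In NCI-H1048 these 3 lists were below the share of all genes.

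The chromosomes contributed unequally. The number of NCI-H526 regions per NCI-H1048 region was 0.838 on chromosome 13 and 0.604 on chromosome 11, and lowest on chromosome 22 with 0.150 and chromosome 10 with 0.167. The local background of the NCI-H526 regions, relative to that of the library, had medians of 1.89 and 1.94 on chromosomes 13 and 11 and 1.00 and 1.01 on chromosomes 22 and 10. Over the 23 chromosomes the count ratio and this background went together (rank correlation 0.762), as a description, since all values come from the same 2 libraries. Copy number was not measured here.

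The densest 1 Mb of the NCI-H526 list was on chromosome 2 and holds NBAS, DDX1 and MYCN, a MYC family gene. There 53 regions were called in NCI-H526 and 9 in NCI-H1048, and the median local background was 27.3 times that of the library in NCI-H526 and 1.34 times in NCI-H1048. With the adjoining 1 Mb the stretch held 93 NCI-H526 regions, 0.522% of that list, of which 84 were found in this line alone and 33 held an octamer core, against 20 regions in NCI-H1048. One of the densest windows of NCI-H1048, with 72 regions, was a gene-rich stretch of chromosome 19 (around STK11 and TCF3), in which NCI-H526 had 6. There 58.3% of the NCI-H1048 regions were promoters and 8.33% held an octamer core. A window of another kind was the 1 Mb with LRP1B and KYNU on chromosome 2, where 58 NCI-H1048 regions included 28 with an octamer core and 3.45% promoters, and where NCI-H526 had 4.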

How the data were processed

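Peak lists of 2 libraries (NCI-H526 and NCI-H1048, POU2F3 antibody, AU-15330) were compared, with the other lists of the series as readouts. The members and gene lists were chosen with earlier results of these data known. Per the labels and the study's methods, reads were trimmed by the authors (Trimmomatic 0.39), aligned to GRCh38 (BWA), filtered (SAMtools, Picard) and passed to MACS2, which was run on each library alone, with no control named and a q-value limit of 0.05. Blacklisted regions were then removed. The deposited columns hold the authors' fold enrichment, −log10 p and −log10 q, and a score, which is derived from the q-value and was not used. The summit position is another deposited score column, counted from the region's start. Fold and p-value depend on depth and on local copy number, so they were ranked within a list.

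Regions on other sequences were left out (150, or 0.834%, in NCI-H526 and 302, or 0.584%, in NCI-H1048). Whole-number pileups were recovered from fold and −log10 p to a tolerance of 0.002 for 100% of the regions of both AU-15330 lists. Read numbers were not used here. Genes and starts are from GENCODE 44 (19962 protein-coding genes and 78397 starts). Features were taken at the region's centre, promoters first, and nearest starts and patterns at the summit. Shared regions were described by their NCI-H526 summits unless stated. The code was tested on simulated regions, pileups and sequences. Genes named are the nearest genes of the 8 strongest regions of each class (shared regions by the sum of their fold ranks in both lists), the tuft cell genes (1 is not reported here), and examples of other lists. Sequences are from the hg38 reference, and candidates on chromosome 8 were left out. Alternatives were a region covered to at least 50%, summits within 200 bases, −log10 q of at least 5, equal numbers of strongest regions, a thinned NCI-H1048 list, all sequences, other gene windows (2 kb and 50 kb), other promoter and motif windows and, added after seeing the data, single-copy summit words and regions also called with DMSO. Python 3.11.15, NumPy 2.4.6, pandas 2.3.3, SciPy 1.17.1, pysam 0.24.0 and matplotlib 3.10.9 were used.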

Additional observations from a re-analysis of the deposited data

Results flagged for a closer look

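The number of regions moved in opposite directions in the 2 lines. The NCI-H526 list with AU-15330 was 0.198 times as long as with DMSO, and the NCI-H1048 list was 1.35 times as long. The background pileup moved in the same directions, from 4.03 with DMSO to 2.03 with AU-15330 in NCI-H526 and from 2.27 to 3.04 in NCI-H1048. Each length ratio rests on 1 library per condition. The difference between the lines, and the part of library depth in it, was not tested.

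The level at shared promoter regions also moved in opposite directions, with a median ratio of AU-15330 over DMSO of 0.797 in NCI-H526 and 2.32 in NCI-H1048. This difference was not tested either, and levels of different libraries also depend on their immunoprecipitation.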

How the results depend on the processing

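Asking for at least 50% of a region to be covered gave shared shares of 35.3% in NCI-H526 and 8.70% in NCI-H1048, and summits within 200 bases gave 33.8% and 11.7%. With equal numbers of strongest regions they were 25.7% and 25.5%, with the thinned NCI-H1048 list 37.3% and 14.7%, with single-copy summit words 39.5% and 13.8%, and among regions also called with DMSO in the same line 43.6% and 31.7%. A −log10 q of at least 5 gave 12.9% in NCI-H1048. Promoter shares within 2 kb were 5.46% in NCI-H526-only, 25.3% in NCI-H1048-only and 40.6% in shared regions, against 2.74%, 34.2% and 35.3% at the stricter q and 5.94%, 42.5% and 48.5% with equal numbers of regions. Octamer shares in the same order were 31.7%, 17.8% and 33.2% for the full octamer, 28.9%, 16.4% and 30.2% within 50 bases, 57.6%, 24.6% and 49.2% at the stricter q and 45.4%, 22.2% and 38.0% with equal numbers. In each of these settings NCI-H526-only regions held more octamer cores and fewer promoters than NCI-H1048-only regions. Within 2 kb of a start 17 tuft cell genes had an NCI-H526 region. The other 8 values stayed within the 95% interval or, for tuft cell gene counts, within 1.5 times, with 26 genes in each line at equal numbers of regions, where 34.6% and 58.1% of all genes had a region. Depth limits what was called, and a region missing from a list was not called at that depth, which does not show that it was unbound. No paired analysis was possible because each condition has 1 library and no result comes from a test.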
